A study of Mus musculus with 24 samples.

Results

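Cdx2 was bound at 2138 places that lay near the start of a gene not annotated as protein-coding and away from the start of any protein-coding gene. They were found among 35518 regions, each of which had a peak in at least 2 of 12 Cdx2 libraries, and made up 6.02% of these regions. A region was taken when the median of its peak summits was within 3 kb of a transcript start of a gene that is not protein-coding and more than 3 kb from every protein-coding transcript start (GENCODE vM21, mm10). The peaks came from ChIPmentation, a chromatin immunoprecipitation in which a transposase adds the sequencing adapters on the beads, of mouse colon organoids. The 4 groups of 3 libraries were proximal and distal colon organoids in WENR-plus medium, with Wnt3a, EGF, Noggin and R-spondin 1, and in WENR-minus medium, which lacked them for 3 days after 2 days of WENR-plus medium. All groups carried heterozygous Cre-inducible BRAF V600E and a heterozygous tdTomato reporter, with no Cre named in the labels, and had been in culture for 4 months. The methods give female mice aged 8 weeks for the organoids in general and 3 mice for these libraries. The comparisons asked whether the site of origin or the niche factors change what Cdx2 occupies.

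Cdx2 is a homeobox factor that sets intestinal identity in the gut epithelium, and it binds AT-rich sites with a TTTAT core. Such genes are of several kinds. Long noncoding RNAs and small RNAs such as miRNAs act as RNA, and miRNAs pair with messenger RNAs through a short seed near their 5′ end. Pseudogenes are copies of protein-coding genes that have lost their function, most of them processed copies put back into the genome by reverse transcription, and often have no promoter of their own. Gene models of the class TEC are transcripts still to be experimentally tested. The nearest noncoding start of a region belonged to a pseudogene in 874 cases, a long noncoding RNA in 644, a TEC model in 275, a small RNA other than a miRNA in 234, a miRNA gene in 78 and an immune receptor segment in 33. Only 956 of the 2138 regions (44.7%) thus lay nearest to the start of an RNA gene, so they are called noncoding gene starts here and not noncoding RNA starts. In all, 1951 genes were the nearest, of 33475 such genes on the chromosomes analysed, and 170 of them had 2 or 3 regions.

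The strongest of these regions shared 1 repeated sequence. It is shown here because 6 of the 8 regions with the highest enrichment among those called in all 12 libraries had it at the summit, as did the region at Mir6397. Each line is the 101 bases centred on the summit, from GRCm38, in lower case with the letters of the Cdx2 motif in capitals. The windows are chr11:109933388-109933488 at Gm11697, chr6:149567378-149567478 at Gm21814, chr5:86963017-86963117 at Gm20121, chr6:71454125-71454225 at Gm44172, chr10:14231610-14231710 at Gm24343, chr15:77743093-77743193 at Gm49410 and chr4:108087829-108087929 at Mir6397. Those at Gm20121, Gm44172, Gm49410 and Mir6397 are written from the minus strand so that the copies run the same way.
Gm11697: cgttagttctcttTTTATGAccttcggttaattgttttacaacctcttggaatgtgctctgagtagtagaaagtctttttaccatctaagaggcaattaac
Gm21814: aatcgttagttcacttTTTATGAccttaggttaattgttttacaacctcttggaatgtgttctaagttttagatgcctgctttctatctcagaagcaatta
Gm20121: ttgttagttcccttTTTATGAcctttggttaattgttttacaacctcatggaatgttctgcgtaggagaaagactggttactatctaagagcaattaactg
Gm44172: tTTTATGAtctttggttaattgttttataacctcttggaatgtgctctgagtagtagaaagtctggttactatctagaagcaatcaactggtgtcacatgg
Gm24343: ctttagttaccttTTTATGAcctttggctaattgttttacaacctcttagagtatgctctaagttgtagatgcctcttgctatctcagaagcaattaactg
Gm49410: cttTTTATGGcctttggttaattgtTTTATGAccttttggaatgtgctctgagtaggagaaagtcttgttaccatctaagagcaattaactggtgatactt
Mir6397: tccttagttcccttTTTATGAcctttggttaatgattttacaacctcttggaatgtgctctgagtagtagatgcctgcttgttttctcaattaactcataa
The motif searched was TTTATGA on either strand, or the same with its last letter changed to form TTTATGG, or with its last letters changed to form TTTATTA, or else the form TTTATTG. Each of these 7 windows held it at least once.

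Members inside the Hox clusters, where Cdx factors are known regulators, are shown here. Hoxaas3 had other sequence around its motif. At Mir196a-2 the bases next to the first motif matched the repeated sequence on the other strand. By the count of shared words given below, the Mir196a-2 window shared 3 words with that at Gm11697, fewer than the 5 asked for. The windows at the summits were chr6:52201006-52201106 for Hoxaas3 and chr15:102972086-102972186 for Mir196a-2, both on the plus strand of GRCm38, and capitals mark the motif on either strand.
Hoxaas3: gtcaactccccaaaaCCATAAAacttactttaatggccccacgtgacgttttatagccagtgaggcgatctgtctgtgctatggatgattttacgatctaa
Mir196a-2: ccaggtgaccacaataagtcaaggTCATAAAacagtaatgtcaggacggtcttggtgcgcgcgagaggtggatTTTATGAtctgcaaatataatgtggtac

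Examples of regions from the comparison of the colon sites, chosen after their values were seen, are shown next. On the plus strand of GRCm38 the windows are chr8:68297488-68297588 at Gm45739 and chr4:19717313-19717413 at Gm12354, which ranked higher in proximal organoids. That of Gm18838, called in proximal libraries only, is chr6:61019644-61019744. Those at Gm11653 and Gm16399, which ranked higher in distal organoids, are chr11:105872871-105872971 and chr3:14804922-14805022. That of Gm44432, called in distal libraries only, is chr6:4612609-4612709. Gm18838 and Gm44432 did not pass Fisher's exact test after adjustment (adjusted p = 0.114 for both). The windows at Gm16399 and Gm44432 hold no motif, so no letter is in capitals.
Gm45739: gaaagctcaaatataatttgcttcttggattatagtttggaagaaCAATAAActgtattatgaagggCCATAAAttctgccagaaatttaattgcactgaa
Gm12354: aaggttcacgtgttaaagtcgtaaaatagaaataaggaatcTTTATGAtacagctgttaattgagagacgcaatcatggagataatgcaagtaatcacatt
Gm18838: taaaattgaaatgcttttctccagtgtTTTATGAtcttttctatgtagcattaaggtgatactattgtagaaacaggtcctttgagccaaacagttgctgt
Gm11653: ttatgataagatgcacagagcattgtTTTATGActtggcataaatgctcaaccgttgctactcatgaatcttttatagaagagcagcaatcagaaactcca
Gm16399: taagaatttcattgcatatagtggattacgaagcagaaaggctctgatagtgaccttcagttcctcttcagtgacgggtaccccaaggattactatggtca
Gm44432: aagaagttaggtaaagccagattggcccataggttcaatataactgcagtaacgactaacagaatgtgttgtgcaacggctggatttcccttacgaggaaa

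For the miRNA genes, mature sequences were available from RefSeq (GRCm38.p6) for 31 of 92 miRNA genes with a start within 3 kb of a member. The 6 below are the ones the results name, with the seed (bases 2 to 8) in capitals. Mir196a-1 and Mir196a-2 lie in different Hox clusters and give the same miR-196a-5p.
miR-196a-5p: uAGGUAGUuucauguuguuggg
miR-192-5p: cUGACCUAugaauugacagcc
miR-194-5p: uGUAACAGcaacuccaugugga
miR-17-5p: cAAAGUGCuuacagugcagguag
miR-1960: cCAGUGCUguuagaagagggcu
miR-6397: uGGAGACUuucaguggaguga

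The peak lists were of very different length, from 5608 to 42192 peaks, and held no read counts, and the sequencing depth of the libraries was not used here. As a check of the labelled tissue, the gut epithelial genes Krt20, Car1, Vil1, Hnf4a and Cdh17 each had a region within 3 kb of a start in all 12 libraries. The lists describe bulk organoids, in which fewer bound cells and less Cdx2 per cell cannot be told apart. The labels give only replicate numbers, so p-values measure the spread between these libraries.

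The number of noncoding start regions followed the length of the list. Proximal WENR-plus organoids had 1587, 1793 and 883 of them in replicates 1 to 3, and proximal WENR-minus organoids 1472, 963 and 747. Distal WENR-plus organoids had 497, 808 and 408, and distal WENR-minus organoids 1105, 502 and 527. All 3 proximal lists held more of them than all 3 distal lists in WENR-plus medium, and the media overlapped within each site. On the log2 scale the proximal mean was higher by 1.31 in WENR-plus medium (10.41 ± 0.55 against 9.10 ± 0.51, SD, n = 3 each), with a two-sided exact permutation p of 0.1, the smallest that 3 against 3 allow. In WENR-minus medium the difference was 0.62 (exact permutation p = 0.3). For WENR-minus against WENR-plus it was -0.42 in proximal (exact permutation p = 0.4) and 0.28 in distal organoids (exact permutation p = 0.5). With all lists made as long as the shortest, the site differences were 0.053 with and 0.12 without niche factors (exact permutation p = 0.3 and 0.1).

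As a share of all regions called in a library, the noncoding starts stayed between 5.96% and 7.61%. With niche factors the share was 6.35% ± 0.59 in proximal and 7.05% ± 0.54 in distal organoids, and without them 6.50% ± 0.43 and 6.57% ± 0.55 (SD, n = 3 each). No comparison of groups passed, with exact permutation p between 0.3 and 0.9 and 0.8 to 0.9 after adjustment over the 4 comparisons. The largest difference was -0.70 points, between proximal and distal organoids with niche factors. Long noncoding RNA starts were 30.0% to 39.5% of the members called in a library and pseudogene starts 32.8% to 42.9%. Members found in every one of the 3 replicates numbered 742 and 516 for proximal organoids with and without niche factors, and 247 and 320 for distal ones. They were 7.14% to 7.59% of all regions found that often.

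**Figure D1:**
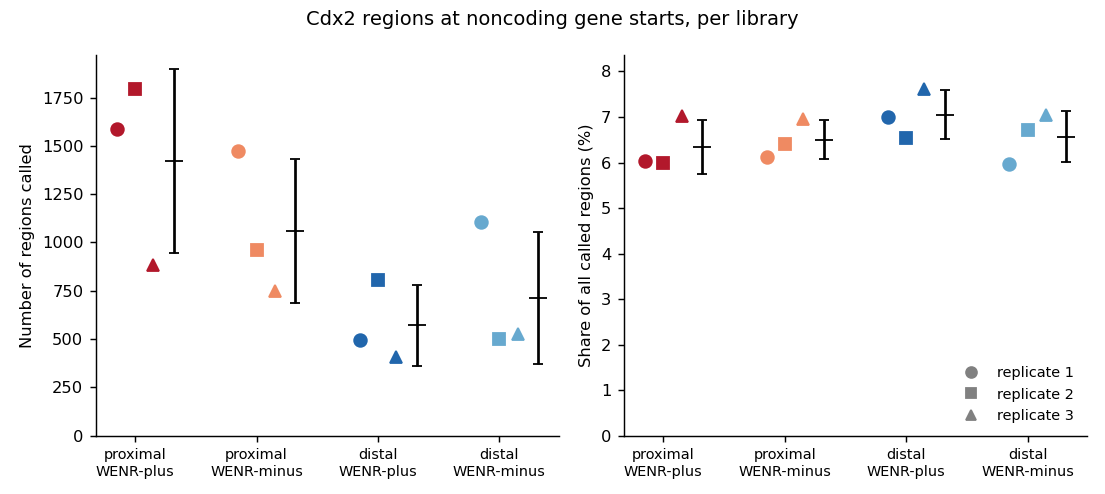
Number of Cdx2 regions at noncoding gene starts per library (left) and their share of all called regions in percent (right), with replicates as symbols, groups as colours and the black mark and bars as mean and SD of 3 libraries. The numbers run from 408 to 1793 while the shares stay between 5.96% and 7.61%.

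Across libraries, 170 members (7.95%) were called in all 12 and 542 (25.4%) in only 2. Over all regions, 5.85% were called in all 12 and 27.1% in 2. Of the regions at long noncoding RNA starts 70 of 644 (10.9%) were called in all 12 libraries, and of those at pseudogene starts 57 of 874 (6.52%), a difference that was not tested. Regions at immune receptor segments were rarely shared, with 0 of 33 in all 12 and 16 of 33 in only 2.

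Most noncoding start regions lay outside protein-coding genes. The summit was intergenic in 1504 (70.3%), in an intron of a protein-coding gene in 593 (27.7%) and in an exon in 41 (1.92%). Away from all starts, 61.5% of regions were intergenic. Regions at TEC starts lay in introns in 183 of 275 cases (66.5%) and those at miRNA starts in 36 of 78 (46.2%). The median distance to the nearest protein-coding start was 34.2 kb, with 423 members within 10 kb and 564 beyond 100 kb.

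The summits did not crowd toward the starts as those at protein-coding genes did. Of all members, 322 (15.1%) had the summit within 500 bp of the start, where an even spread over 3 kb would put 16.7%. The same bin held 865 of 3885 regions at protein-coding starts (22.3%). The kinds of gene differed in it, with 138 of 644 regions at long noncoding RNA starts (21.4%) and 92 of 874 at pseudogene starts (10.5%). Summits lay upstream of the start in 51.3% of members. At the limit of the rule, 61 members had their summit 2900 to 3000 bp from a start and 60 regions lay 3000 to 3100 bp away and were not taken. The motif was present in 63.9% of the former and 66.7% of the latter, and their median fold percentiles were 42.9 and 43.4.

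**Figure D2:**
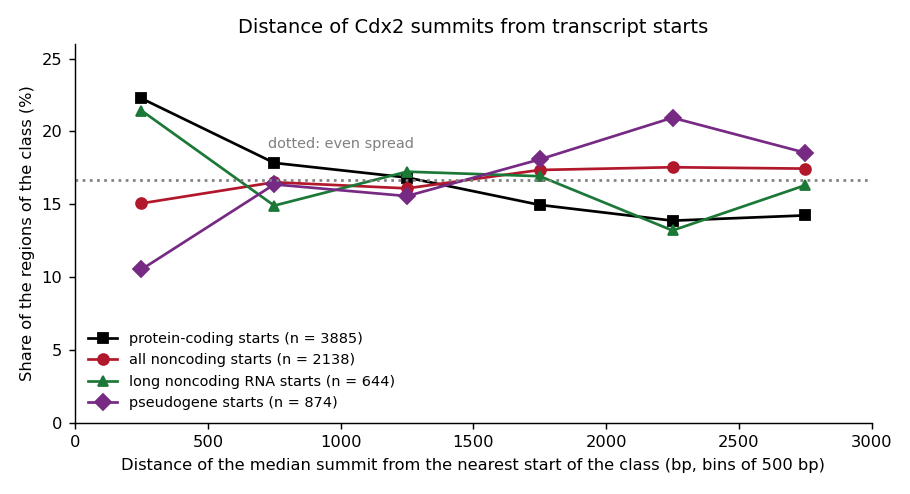
Share of the regions of a class (percent, y axis) in bins of 500 bp of the distance between the median summit and the nearest start of that class (x axis, bp). The bin nearest to the start holds 22.3% of the regions at protein-coding starts and 21.4% of those at long noncoding RNA starts, against 15.1% of all noncoding starts and 10.5% of pseudogene starts.

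The Cdx2 motif was at the summit of most members. It lay within 50 bp of the median summit in 1384 of 2138 members (64.7%, 95% Wilson interval 62.7 to 66.7, counting error only). Windows of the same length 1000 bp to either side held it in 10.6%. Over all 35518 regions it was present in 66.8%. The share was 69.5% at TEC starts, 67.3% at pseudogene starts, 62.0% at long noncoding RNA starts, 60.3% at small RNA starts other than miRNAs and 52.6% at miRNA starts (interval 41.6 to 63.3, 78 regions). It was 58.9% in members called in 2 libraries and 79.4% in those called in all 12. The form TTTATGA was found in 24.6% of members, TTTATTA in 21.8%, TTTATTG in 20.9% and TTTATGG in 16.9%.

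Within each library, summits at noncoding starts carried the motif more often than summits at protein-coding starts. The share averaged 59.1% ± 5.8 against 51.8% ± 5.1 (SD, 12 libraries), and the difference was 7.33 percentage points, ± 2.29 over the 6 organoid lines, where a line is 1 site and 1 replicate number. It was above 0 in 12 of 12 libraries and ran from 3.15 to 13.6. The two-sided exact sign-flip permutation test over the 6 lines gave p = 0.03125, the smallest that 6 lines allow, and 0.125 after Benjamini-Hochberg adjustment over 4 comparisons of classes, so the difference did not pass the adjusted threshold of 0.05. Against regions away from starts the difference was -0.22 points (p = 0.781 by the same exact permutation test). Where only RNA genes were kept, without pseudogenes, TEC models and immune segments, it was 3.22 points against protein-coding starts. It was -4.48 points against all other regions, which then took in those near the starts left out (exact permutation p = 0.03125 and adjusted 0.0417 for both). No adjustment was made over the alternatives. These tests take the 6 lines as independent, but they came from 3 mice. If same-numbered lines share a mouse, which the labels do not say, 3 units allow no p below 0.25.

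**Figure D3:**
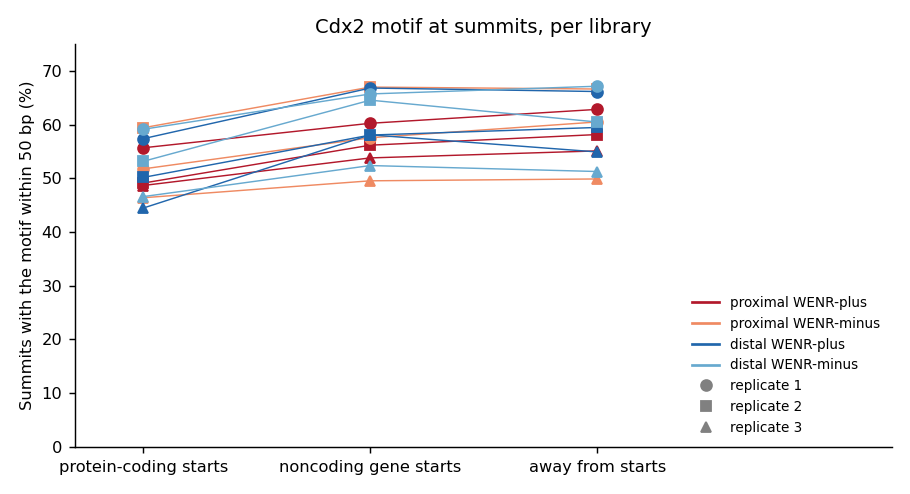
Share of summits with the motif within 50 bp (percent, y axis) in each of 12 libraries, for regions at protein-coding starts, at noncoding gene starts and away from starts, with 1 line per library coloured by group. Every line rises from protein-coding to noncoding starts, by 3.15 to 13.6 percentage points.

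Over all gene kinds, enrichment over input at noncoding starts showed no difference from either other class that passed the test. The deposited fold of a peak is the ratio of its summit pileup to the background of its own input, so it was ranked within each library and given as a percentile. The median percentile of members was 54.6 ± 4.8 (SD, 12 libraries), against 52.0 ± 5.2 at protein-coding starts and 54.5 ± 2.9 away from starts. The difference from protein-coding starts was 2.52 points (exact sign-flip permutation p = 0.0625, adjusted 0.125) and from regions away from starts 0.0935 points (exact permutation p = 1). With RNA genes only, the difference from protein-coding starts was 5.31 points (exact permutation p = 0.03125, adjusted 0.0417), with the same limit on the independence of the lines. That p is the smallest these lines allow. Its adjusted value was under 0.05 because other tests of this setting had the same p. In the main setting the motif test with the same p had an adjusted value of 0.125. No adjustment was made over the alternatives, and with starts within 1 kb the difference was 0.82 points (exact permutation p = 0.5625).

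The members with the highest enrichment among those called in all 12 libraries are known genes only in part. Gm11697, an antisense transcript whose region lay in an exon of Abca8b, had folds from 24 to 93.1 with a median of 40. Gm21814, a long intergenic noncoding RNA, had 17 to 67.7 with a median of 32.2. Gm44172, of the same kind, had 16.4 to 60.2 with a median of 31.5. In each library these regions were in the top 3% by fold, with lowest percentiles of 98.4, 98.1 and 97.8. Hoxaas3 and the pseudogene Rpl36-ps2 were the 2 of the 8 without the repeated sequence. Rpl36-ps2, in an intron of Abr, had folds from 18.1 to 28.8 with a median of 23.7.

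The repeated sequence was measured by the words of 10 letters that a window of 101 bases shared with the window at Gm11697, on either strand. It was chosen after the values were seen, so its counts are a description. At least 5 words were shared by 53 of 2138 members (2.48%) and by 753 of all 35518 regions (2.12%), against 3 of 4276 windows 1000 bp from the members' summits. All 53 windows were soft-masked as repeats in part or whole. The motif was present in 42 of the 53. Their median fold percentile was 82.6, against 45.6 for the 2085 other members, and 14 of the 53 (26.4%) were called in all 12 libraries, against 7.48% of the others. Neither was particular to noncoding starts. Over all 753 regions with the sequence the median percentile was 80.1 and 25.8% were called in all 12 libraries. At protein-coding starts these were 88 and 46.2%. The words were taken from Gm11697, itself among the strongest members, so the contrast in enrichment is no independent result. Of the 170 members called in all 12 libraries, 14 (8.24%) had it, as did 194 of all 2079 such regions (9.33%). With at least 3 shared words the members numbered 74, and with at least 10 they numbered 39. The word of 16 letters most often shared by the 53 windows, ggttaattgttttaca, had 277 copies on the chromosomes analysed, and 255 of these copies (92.1%) lay inside a Cdx2 region. That word was picked from Cdx2 regions, and how the authors' alignment placed reads from repeats is not given in the sources used here.

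Site of origin was compared in 2 ways, by whether a peak was called and, for regions called in all 12 libraries, by its rank. Of the 2138 members, 44 (2.06%) were called in all 6 proximal and in no distal library, where the background over all regions was 1.8%. Only 4 (0.187%) were called in all 6 distal and no proximal library, where the background was 0.0957%. Both shares were near the background. By Fisher's exact test per region 121 members were called more often in proximal libraries at an unadjusted p under 0.05 (5.66%, background 4.96%) and 8 more often in distal libraries (0.374%, background 0.282%). None of the 2138 passed after adjustment over all regions, the lowest adjusted p being 0.114, which is the value of a full split of 6 against 6. When all lists were made as long as the shortest, 695 members remained, of which 8 (1.15%, against 1.29% of all regions) were proximal only and 4 (0.576%, against 0.618%) distal only. Leaving out 1 replicate gave 62 to 98 proximal-only and 4 to 7 distal-only members, the highest proximal count without replicate 3. With 4 libraries against 4 Fisher's test passes a full split only, unadjusted, so its counts are then the same by construction.

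The proximal-only members with the highest enrichment carried the motif. Gm18838, a processed pseudogene 75.2 kb from the start of Mmrn1, had folds from 11.3 to 17.6 with a median of 14.9 in the 6 proximal libraries. Gm37150, a TEC model, had 9.2 to 15.7 with a median of 13.1. Gm30292, a long intergenic noncoding RNA, Apol10c-ps, a pseudogene among the apolipoprotein L genes, and Ear-ps4, a pseudogene of the eosinophil-associated ribonucleases, had medians of 9.76, 9.44 and 8.36. Over the 44 members the motif was found in 29 (65.9%), close to the 64.7% of all members.

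Over the 4 distal-only members the median of the median folds was 6.74, against 6.87 over the 44 proximal-only ones. Gm44432, a TEC model in an intron of Casd1, had folds from 7.48 to 18.7 with a median of 9.09 in the 6 distal libraries. Gm22184, a predicted miRNA gene, had 4.85 to 9.04, the pseudogene Gm44420 had 5.24 to 8.88, and E130119H09Rik, a processed transcript, had 4.65 to 8. The motif was found at the summits of Gm22184 and Gm44420 and not at those of Gm44432 and E130119H09Rik.

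The rank comparison used the 2079 regions called in all 12 libraries, 170 of them members. Folds were ranked within a library, turned into normal scores, which have a mean of 0 and an SD near 1, and fitted with limma for site, medium and their interaction, with Benjamini-Hochberg adjustment over the 2079 regions. The fit takes the libraries of both media of a line as independent. For site, 11 members (6.47%) were higher in proximal organoids, where the background was 5.58%, and 7 (4.12%) were higher in distal organoids, where the background was 5%. At an unadjusted p under 0.05 there were 40 members (23.5%, against 24.5% of all 2079). Over the 170 members the median site difference was -0.02 score units, and over all 2079 regions it was -0.03. With the mean of both media of a line as the value, 3 lines against 3, 5 members were higher in proximal and 2 in distal organoids. Of all 2079 regions 68 then passed. Without replicate 2 no member passed (lowest adjusted p = 0.0653 by limma), and 6 of all 2079 regions did. Without replicate 1 there were 3 and 1 members, and 29 of all 2079 regions passed. All 18 members kept their sign in every such fit.

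Regions higher in proximal organoids were led by Gm45739, a processed pseudogene whose region lay in an intron of Sh2d4a. Its fold ran from 15.5 to 19.3 with a median of 17.3 in the 6 proximal libraries and from 5.97 to 7.1 with a median of 6.57 in the 6 distal ones. The groups did not overlap, and the score was higher in proximal organoids by 1.60 ± 0.22 (SE, limma adjusted p = 0.00135). Gm12354, a long intergenic noncoding RNA 8.37 kb from the start of the ubiquitin ligase gene Wwp1, had folds of 16.3 to 30.6 against 6.61 to 11.9 (1.30 ± 0.23, limma adjusted p = 0.00476). Gm12779, a processed pseudogene, had 15.6 to 23.8 against 5.74 to 11 (1.30 ± 0.25, limma adjusted p = 0.00581). In both the lowest proximal fold lay above the highest distal one, as it did in the next pair. By percentile within the list, Gm12354 stayed apart (lowest proximal 95.7, highest distal 92.7). Gm12779 overlapped by percentile (93.9 and 94.5), as did the next pair, Gm41386 (90.1 and 91.2) and Gm26804 (73.5 and 81). Gm41386, a long intergenic noncoding RNA, had 12.1 to 24.9 against 3.78 to 9.36 (1.44 ± 0.33, limma adjusted p = 0.013, and 0.0527 with the mean of both media of a line), and Gm26804, of the same kind, 8.13 to 17.1 against 3.8 to 7.34 (1.33 ± 0.31, limma adjusted p = 0.0131). All 101 bases at the summit of Gm26804 were soft-masked as repeat and held no motif.

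Gm22328, a predicted miRNA gene in an intron of Foxp1, was just past the threshold, with folds of 7.81 to 11.6 in proximal and 5.12 to 7.42 in distal libraries (0.71 ± 0.21, limma adjusted p = 0.0499, and 0.162 with the mean of both media of a line).

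Regions higher in distal organoids had folds that overlapped between the sites. Folds could run higher in proximal libraries where ranks did not. Rpl36-ps2 had a median fold of 26.5 in proximal and 21.6 in distal libraries, with a score difference of -0.49 (limma adjusted p = 0.133). Overlap of folds is thus no measure of the difference in rank. The percentiles of the regions below overlapped between the sites as well. Gm16399 is a processed pseudogene inside Car1, the gene of carbonic anhydrase 1 of colonocytes, and the summit was 3.39 kb from a Car1 start. Its fold ran from 7.61 to 11.1 with a median of 9.83 in proximal and from 7.93 to 20.6 with a median of 13.1 in distal libraries. The ranges overlapped, and the score was lower in proximal organoids, with a difference of -1.37 ± 0.25 (SE, limma adjusted p = 0.00484). AI847159, an antisense transcript, had folds of 5.48 to 8.87 against 6.61 to 13.6 (-1.36 ± 0.26, limma adjusted p = 0.00581). Gm11653, a processed pseudogene in an intron of Tanc2, had 11.7 to 15 against 12.1 to 26.7 (-1.31 ± 0.27, limma adjusted p = 0.00753). The antisense transcript 0610031O16Rik, 14 kb from the start of the alcohol dehydrogenase gene Adh7, had 4.95 to 13 against 6.99 to 14.2 (-1.24 ± 0.26, limma adjusted p = 0.00886). Gm20528, a processed transcript beside Mroh2a, had 6.94 to 13.3 against 9.09 to 16.9 (-0.98 ± 0.22, limma adjusted p = 0.0131). With the mean of both media of a line, Gm11653, 0610031O16Rik and Gm20528 were no longer past the threshold (limma adjusted p = 0.0501, 0.0519 and 0.0542), and Gm16399 and AI847159 were (limma adjusted p = 0.0439 and 0.0407). The motif was at the median summit of 9 of the 11 members higher in proximal and of 3 of the 7 higher in distal organoids. Over the 170 members called in all 12 libraries it was at 79.4%, and no difference was tested. Of those scored as without it, AI847159 had it at the summits of 7 of 12 libraries and Gm16399 at those of 3. The repeated sequence was in 1 of the 18.

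**Figure D4:**
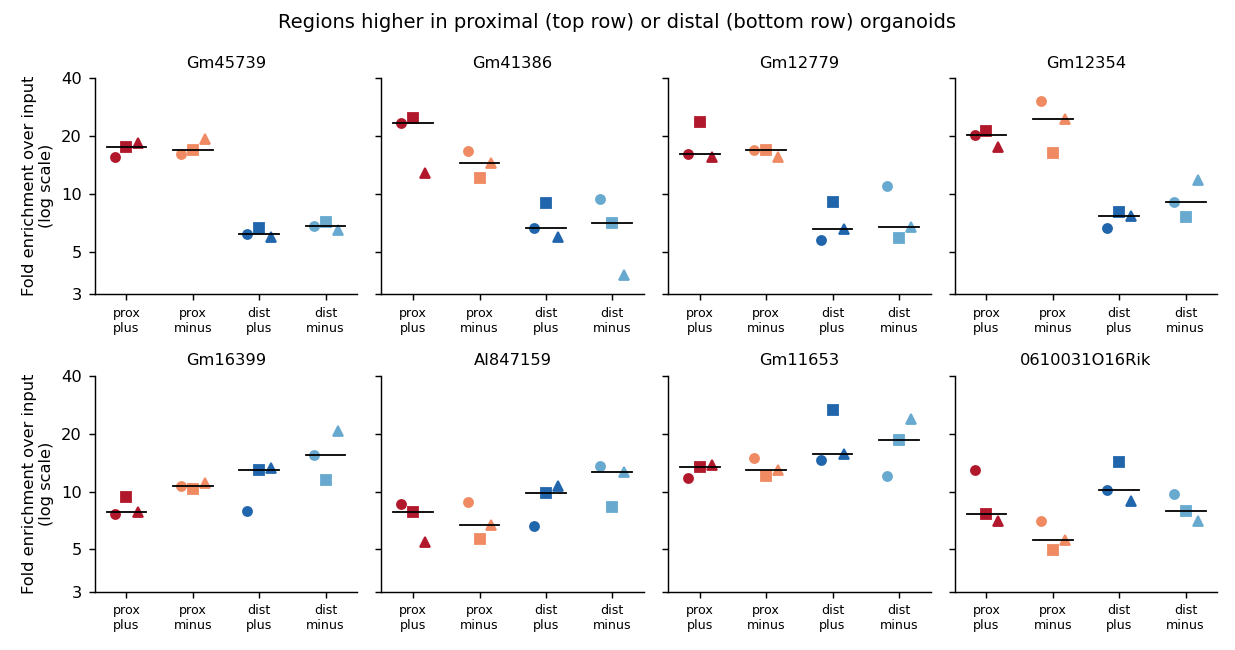
Fold enrichment over input (y axis, log scale) in each of 12 libraries for 4 regions higher in proximal organoids (top row) and 4 higher in distal organoids (bottom row), with symbols for replicates 1 (circle), 2 (square) and 3 (triangle) and a black line at the median of 3 libraries. Proximal and distal folds do not overlap in the top row, and they overlap in the bottom row. Percentiles within the lists overlap for Gm41386 and Gm12779 of the top row and for the regions of the bottom row. Folds could run higher in proximal libraries where ranks did not, as at Hoxaas3.

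Niche factor withdrawal changed few members, and none of them in every fit. By limma 3 members (1.76%) were higher in WENR-minus medium, where the background was 0.914%, and 1 (0.588%) was higher in WENR-plus medium, where the background was 0.433%. Gm15286, a processed transcript, had folds of 5.12 to 11.2 with a median of 8.41 in the 6 WENR-plus libraries and 9 to 22.6 with a median of 14.4 in the 6 WENR-minus libraries (1.62 ± 0.24, limma adjusted p = 0.00989). The pseudogenes Gm6114 and AC125203.1 had medians of 8.7 and 8.83 in WENR-plus against 15.9 and 14.3 in WENR-minus medium (1.28 ± 0.29 and 1.15 ± 0.25, limma adjusted p = 0.04997 for both). Gm49028, a pseudogene, had 9.83 to 24.7 in WENR-plus and 4.44 to 8.89 in WENR-minus medium, without overlap (-1.56 ± 0.34, limma adjusted p = 0.04997). None of the 4 passed when any 1 replicate was left out. For the interaction of site and medium 0 of 170 members passed in limma, with 7 at an unadjusted p under 0.05 (4.12%, against 4.62% of all regions in the fit). By calls, 1 member was found in all 6 WENR-plus and no WENR-minus library, where the background was 0.0253%. This was Gm17025, an antisense transcript in an intron of Xpnpep3, with folds of 4.7 to 8.11. In all 6 WENR-minus and no WENR-plus library there were 0 members (background 0.00563%). By Fisher's exact test for medium 0 members passed after adjustment and 6 at an unadjusted p under 0.05 (0.281%, background 0.189%).

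In the Hox clusters, the region at Hoxaas3, an antisense transcript across the Hoxa genes, was among the strongest. Its summit lay 68 bp upstream of a Hoxaas3 start, within an intron of Hoxa3 and 3.53 kb from the nearest Hoxa5 start. The fold was 30.4 to 44.2 with a median of 37.8 in proximal and 18.1 to 28.9 with a median of 24.7 in distal libraries. The folds did not overlap, but the ranks within the lists did not differ beyond their error (-0.06 ± 0.20, limma adjusted p = 0.889). A weaker Hoxaas3 region, 954 bp upstream of another start, was called in 6 proximal and 0 distal libraries, with folds of 4.07 to 6.58. Mir196a-2, in the Hoxc cluster, had a region 1214 bp upstream in 11 libraries, with folds of 8.14 to 11.9 in 6 proximal and 4.52 to 7.11 in 5 distal libraries. Mir196a-1, in the Hoxb cluster, had a region in 4 libraries, 3 of them proximal, with folds of 4.84 to 7.79.

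Among 83 well-known noncoding genes, chosen as a list from general knowledge, 78 were in the annotation and 11 had a member at a start. Another 4 (Mir10a, Hotairm1, Hoxd3os1 and Gas5) had a Cdx2 region within 3 kb of a start that was also within 3 kb of a protein-coding start. Of the 78, 25 had such a protein-coding start beside them, and 63 had no region at a start. By group, members were found at 5 of 43 miRNA genes or hosts, 2 of 10 Hox cluster long noncoding RNAs, 0 of 6 long noncoding RNAs beside endoderm regulators and 4 of 19 widely studied long noncoding RNAs. Mir192 and Mir194-2, neighbours whose miRNAs are abundant in gut epithelium, had 2 regions, each called in 2 proximal libraries only, with folds of 3.8 to 7.21. Mir17hg, the host of the miR-17 cluster, had a region in 3 libraries with folds of 3.17 to 5.37. Pvt1, which lies downstream of Myc, had a region 524 bp downstream of a transcript start that lies inside the gene, far from its first start, in 8 libraries, 6 of them proximal, with folds of 3.52 to 8.15. Dleu2, the host of miR-15a and miR-16-1, and Lockd, downstream of Cdkn1b, each had a region in 3 proximal libraries, with folds of 4.03 to 4.35 and 4.7 to 5.18. That of Dleu2 lay 2093 bp downstream of a transcript start inside the gene, far from its first start. Neat1, the scaffold of nuclear paraspeckles, had 2 regions that lay nearest to Frmd8os, called in 4 and 2 libraries with folds of 4.64 to 7.11. For these genes a missing call is not a measured absence, since the lists hold only peaks that passed the authors' limit on q.

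At miRNA genes, 87 members had a miRNA gene start within 3 kb. The region at Mir6397, whose summit lies in the repeated sequence printed above, had folds of 6.83 to 28.8 with a median of 16.4, and the region at Mir1960, in an intron of Hadhb, had 6.88 to 19.3 with a median of 12.8. Both overlapped the annotated hairpin, which 4 of the 33 pairs of a RefSeq miRNA gene and a member region did. Of the 7 miRNA-nearest members called in all 12 libraries, Gm24063 had folds of 10.1 to 18.5, Gm47303 4.91 to 18.4, Gm23701 5.13 to 11.5 and Gm22406 3.94 to 9, and neither site nor medium passed for any of these 4 in limma. The region nearest to Gm23973, a small RNA model with a miRNA gene start also within 3 kb, was called in 11 libraries with folds of 8.04 to 29 and carried the repeated sequence.

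**Figure D5:**
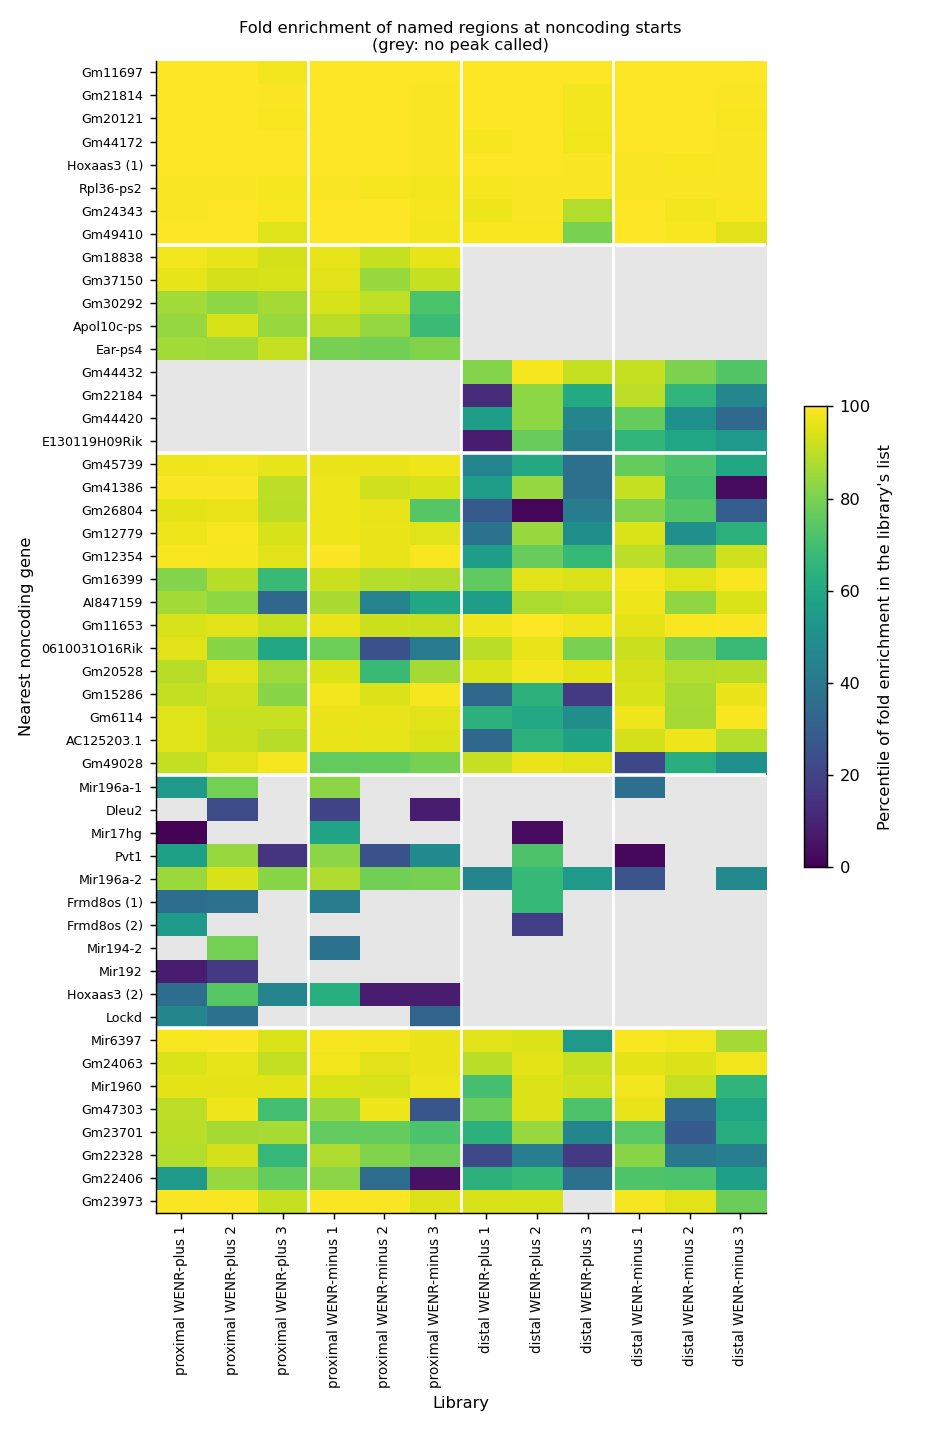
Percentile of fold enrichment within the list of each library (colour, 0 to 100) for named regions at noncoding starts (rows, by nearest gene) in 12 libraries (columns), with grey where no peak was called. Rows from top to bottom are the 8 strongest, those found at only 1 site, those called by limma, those of well-known genes and those at miRNA genes.

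A few members had a very high significance at a low fold. In 5 members the median -log10 q was above 20 while the median fold was below 5, as it was in 77 of all regions. Gm33838 on chromosome 9 had a median -log10 q of 941 at a fold of 2.28 in 12 libraries, and its whole summit window was soft-masked. Gm28438 on chromosome 1, an unprocessed pseudogene, had 122.6 at a fold of 3.57, and 99.1% of its words of 25 bases were also in the mitochondrial genome. AY036118 on chromosome 17 had 54.9 at a fold of 3.19. The window at AY036118 was not soft-masked and held no such words. The part of repeats and mitochondrial-like sequence in these calls was not tested.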

How the data were processed

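Chromatin of organoids of 2 colon sites in 2 media was immunoprecipitated for Cdx2 in 12 libraries, and the 12 input libraries entered only the authors' peak calls. The authors trimmed reads, aligned them to mm10, removed duplicates and called peaks in each library against its input at a q-value of 0.01. The submitters' processing notes name Trimmomatic 0.39, Bowtie2 2.4.5, SAMtools 1.13, MACS2 2.2.7.1 and deepTools 3.5.1. How multiply mapped reads were treated is not given in the sources used here. The deposited peak lists give a fold enrichment (the ratio of summit pileup to the local background), -log10 p and -log10 q for each peak, as the authors' peak caller wrote them. The deposited score was 10 times -log10 q cut to a whole number in all but 17 peaks and was not used. The lists hold no read counts, read depths were not used here, and the number of peaks limits the precision.

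Peaks overlapping by at least 1 bp were merged into 61454 regions, of which 25936 had a peak in 1 library only and were left out, as were 1024 peaks on other contigs or the mitochondrial genome. Starts were 141730 transcript starts of GENCODE vM21, 40091 of them of genes that are not protein-coding. The motif was sought within 50 bp of a summit. Group means were compared by exact permutation tests, classes of regions by exact sign flips over 6 lines, calls by Fisher's exact test and ranks by limma 3.58.1 in R 4.3.3, with Benjamini-Hochberg adjustment at 0.05. Tested on data simulated for proximal against distal over 2079 regions, the limma step recovered 77 of 100 regions changed by 1 unit on the log2 scale and 97 of 100 changed by 2, with 12 calls among 1879 unchanged regions. The simulated libraries varied independently of each other, unlike same-numbered real libraries, so these counts may not hold for the real lists. Python 3.11.15, numpy 2.4.6, pandas 2.3.3, scipy 1.17.1, pysam 0.24.0 and matplotlib 3.10.9 were used.

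The regions named were the 8 with the highest median fold percentile among those in all 12 libraries, up to 5 confined to each site and 3 to each medium, up to 5 per direction and contrast in limma, those at genes of the list of well-known noncoding genes, and 8 at miRNA genes. One region that this rule names is not reported here. The regions of high significance at low fold and the repeated sequence fall outside this rule and were chosen after their values were seen. Members, lists and tests were chosen with earlier results of these data known. Same-numbered libraries deviated together in part, with correlations of 0.0015 to 0.5342, and were not taken as pairs. Alternatives were lists of equal length, a stricter q, starts within 1 kb, RNA genes only, other scalings, a replicate block and leaving out each replicate.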

Additional observations from a re-analysis of the deposited data

How the results depend on the processing

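No difference between groups in the number or share of members passed under any alternative, which exact tests of 3 against 3 cannot do. With lists of equal length the log2 number differed between sites by 0.053 in WENR-plus and 0.12 in WENR-minus medium. The share then differed by -0.13 and 0.26 points. Between media the log2 number differed by 0.032 in proximal and -0.039 in distal organoids. From regions away from starts, the fold percentile differed by 2.21 points and the motif share by 1.29 points. With these lists 8 members were proximal only. Unadjusted, 26 members passed Fisher's test as more often proximal and 9 as more often distal. With -log10 q of at least 5, 29 were proximal only and the motif difference was 0.37. With starts within 1 kb the share differed by 0.045 and the fold percentile from other regions by -1.63. The motif share then differed by 3.83 points from coding starts and by -3.80 from other regions (exact permutation p = 0.03125, adjusted 0.0625 for both). Those other regions took in the ones 1 to 3 kb from a noncoding start. In this setting 20 and 1 members were confined to proximal and distal organoids, and 43 and 3 passed Fisher's test unadjusted. Limma called 2 and 2 for site and 1 and 0 for WENR-minus and WENR-plus. These counts are lower by construction, from 675 members. With RNA genes only, from 976 members, the motif differences were 3.22 against coding and -4.48 against other regions and the percentile difference from coding starts 5.31, each at an adjusted p of 0.0417 by exact permutation, with 21 and 2 confined, 57 and 5 by Fisher's test, 6 and 4 for site and 1 and 0 for medium. Where a peak had to cover 50% of a region, an alternative added after seeing the data, the share differed by 0.012, 1 member was distal only and 4 passed for distal. The overlap of 50% set out first changed nothing by construction, since peaks lie inside their regions. Sign flips over 12 libraries gave p = 0.000488 (exact permutation) for the motif difference of 7.33 against coding starts. That test takes both libraries of a line as independent, which they are not. The libraries also share many regions, so this p is no stronger evidence than that over the 6 lines. No p was adjusted over the alternatives.

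In limma, quantile-normalised log2 folds gave 1 and 0 members for medium, regions in at least 10 libraries 19 higher in proximal organoids and 1 and 0 for medium, and the mean of both media of a line, also added after seeing the data, 5 and 2 for site. Over all regions, in both directions together, these fits called 7 for medium, 372 for site and 3 for medium, and 68 for site. With a replicate block, site gave 15 and 7 members and medium 4 and 2, and no other call counted here changed by over 1.5 times. Over all regions the block gave 302 site and 61 medium calls. Of 36 correlations of libraries with other numbers the mean was -0.1169, and of 18 with the same number 0.2387.

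Leaving out each replicate gave site calls of 0 to 9 proximal and 0 to 6 distal, medium calls of 0 in both directions, and 62 to 98 proximal and 4 to 7 distal members confined to a site, which are also the counts of Fisher's test by construction. Over all regions the limma fits then gave 6 to 165 site calls and 0 to 2 medium calls. The share differed by -0.11 to 0.013 between sites in WENR-minus medium and by -0.0069 to 0.23 between media in proximal organoids, the log2 number between media in distal organoids by -0.17 to 0.71, the motif share from regions away from starts by -0.69 to 0.53, and the percentile by -0.10 to 0.62. For the regions named from limma, 55 refitted differences kept their call, 39 fell short of the threshold and 0 changed sign. The cause of these changes was not tested.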
